A study of Mus musculus with 18 samples.

Results

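The ligands of the TGF-β superfamily that act locally in the mammary gland, and the activin antagonist follistatin, were described across 18 single-cell RNA libraries of the mouse. The 9 genes, of 31053 measured, were taken by name: the TGF-β isoforms Tgfb1, Tgfb2 and Tgfb3, the activin/inhibin β subunits Inhba and Inhbb, the bone morphogenetic proteins Bmp2, Bmp4 and Bmp7, and follistatin, Fst. They were picked as a gene family and not by a threshold on measured values, with earlier results of these data known, and all 9 were detected. On GRCm38 (mm10), Tgfb1 lies at chr7:25687002-25705077 on the plus strand, Tgfb2 at chr1:186622792-186705989 on the minus strand, Tgfb3 at chr12:86056745-86079041 on the minus strand, Inhba at chr13:16011851-16031621 on the plus strand and Inhbb at chr1:119415465-119422248 on the minus strand. Bmp2 lies at chr2:133552159-133562885 on the plus strand, Bmp4 at chr14:46383520-46390669 on the minus strand, Bmp7 at chr2:172868012-172940321 on the minus strand and Fst at chr13:114452290-114458951 on the minus strand. All are protein-coding.

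TGF-βs, activins and BMPs are secreted dimers that bind pairs of serine/threonine kinase receptors. TGF-βs and activins signal mainly through Smad2 and Smad3, and BMPs through Smad1, Smad5 and Smad9. TGF-βs are stored in the matrix in a latent form, bound to Ltbp proteins, until integrins or proteases release them, while follistatin binds activins tightly and some BMPs more weakly. In the mammary gland TGF-β is known as a brake on ductal growth and on milk secretion during pregnancy, and mice without a working Inhbb gene do not lactate properly. The gland's ducts hold an outer layer of contractile basal (myoepithelial) cells around luminal cells, which comprise hormone-sensing mature luminal (ML) cells and luminal progenitors (LP), from which the milk-secreting alveolar cells arise.

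The libraries were made from pooled animals with the 10x Chromium 3′ assay. C57BL/6 animals gave 1 library each of E18.5 mammary rudiments, the adjacent E18.5 skin, glands at 5 days of age, pre-pubertal glands labelled 2.5 weeks, and terminal end buds (TEBs, the growing duct tips) and ducts at 5 weeks. Virgin adults of 10 weeks gave 1 C57BL/6, 1 SWISS and 3 FVB/NJ libraries (A10, P7 and D12), and FVB/NJ glands gave 2 libraries at pregnancy day 12.5 (H and G), 2 at pregnancy day 18.5 (F4 and B4), 2 at lactation day 10 (F11 and D6) and 1 after involution, when the lactating gland has regressed. Per the study's methods, the embryos carried an Lgr5-GFP reporter and the TEB and duct donors an E-cadherin-GFP reporter, which guided their dissection. The animals were not staged for estrus, and no group was treated with an agent. The glands were sorted for CD24+ CD29+ cells without blood or endothelial surface markers, so fibroblasts, vessel cells and immune cells in these libraries are what the sort let through, and their numbers do not measure the stroma.

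Total counts per library ran from 9920346 unique molecular identifiers (UMIs, tagged RNA molecules) in adult P7 to 93234616 in lactation D6. Of 149371 barcodes 132599 were kept as cells, and any 2 libraries shared at most 2.41% of the smaller one's barcodes. P7 has barcodes of 14 bases and the other libraries of 16, so it was made with another version of the assay. Results of the 9 genes that rest on it are given without it. Cells were grouped by clustering without the 9 genes and without the other pathway genes, and clusters were named from fixed markers: 41883 cells were called basal, 38621 LP/alveolar and 20108 ML, while 8858 cells lay in clusters with markers of more than 1 class and 3336 stayed unnamed. The E18.5 mammary epithelium carried Epcam, Krt8 and Krt18 but could not be divided, and its 4765 cells are called undivided epithelium. In the ML cells of the pre-pubertal, adult C57BL/6 and adult P7 libraries and the LP/alveolar cells of lactation D6, 0 fixed markers of the class were among the 10 leading genes, and these names rest on the marker score alone. The same holds for the immune cells of both lactation libraries. Levels are given as CPM, the UMIs of a gene per 1000000 UMIs summed over 1 cell class in 1 library. Within such a sum, fewer cells making a transcript and less of it per cell cannot be told apart. In a 3′ assay such levels compare 1 gene between cells, not genes with each other.

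The 9 genes differed in the cell class in which they were highest. In the 15 libraries that held all 3 epithelial classes, Bmp7 and Fst were highest in basal cells in 15, Tgfb1 in ML cells in 14 and Tgfb2 in LP/alveolar cells in 14. Tgfb3 was highest in LP/alveolar cells in 10 of the 15 and Inhbb in 10, with ML cells highest for Inhbb in the other 5. These counts use totals that include the milk genes, which lower the LP/alveolar levels in pregnancy and lactation. Inhba was highest in ML cells in 9. Bmp2 and Bmp4 lay at a median under 1 CPM in each epithelial class, and, among classes found in at least 3 libraries, their highest medians were in mural cells (50.2 CPM, 3 libraries) and fibroblasts (20.9 CPM, 10 libraries). The fibroblast, endothelial and Schwann medians include the E18.5 skin library and are not levels of the gland alone. Mural cells were few, 46 in adult C57BL/6, 83 in A10 and 86 in pregnancy F4, and a per-cell gate on marker UMIs named 30, 46 and 47 of them so. The leading genes of the F4 ones included Gpihbp1 and Cldn5, which also led endothelial cells of other libraries. No lactation library is in the mural medians, while the LP/alveolar ones include the milk-rich lactation cells.

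**Figure D1:**
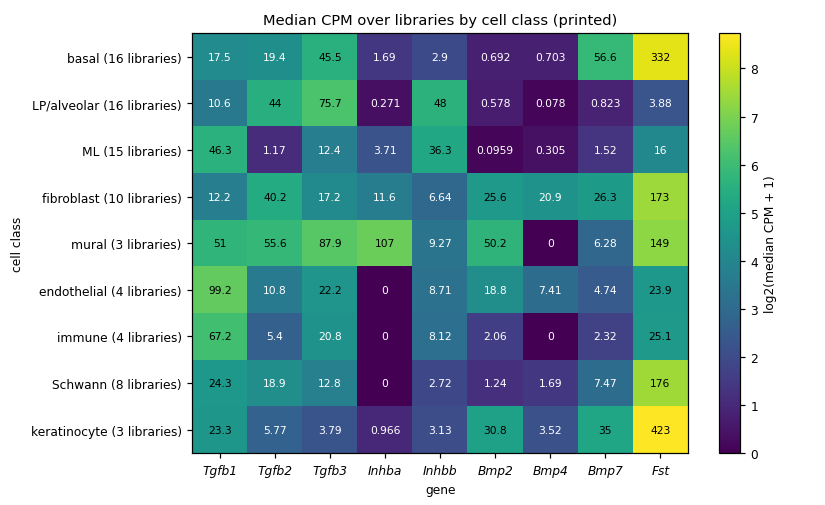
Median CPM over libraries for each of the 9 genes (columns) in each cell class found in at least 3 libraries (rows). The colour is log2(median CPM + 1) and the median CPM is printed in each cell. The fibroblast, endothelial and Schwann rows include the E18.5 skin library. The basal row is high for Bmp7 (56.6) and Fst (332), the LP/alveolar row for Tgfb2 (44), Tgfb3 (75.7) and Inhbb (48), and the ML row for Tgfb1 (46.3) and Inhbb (36.3).

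**Figure D2:**
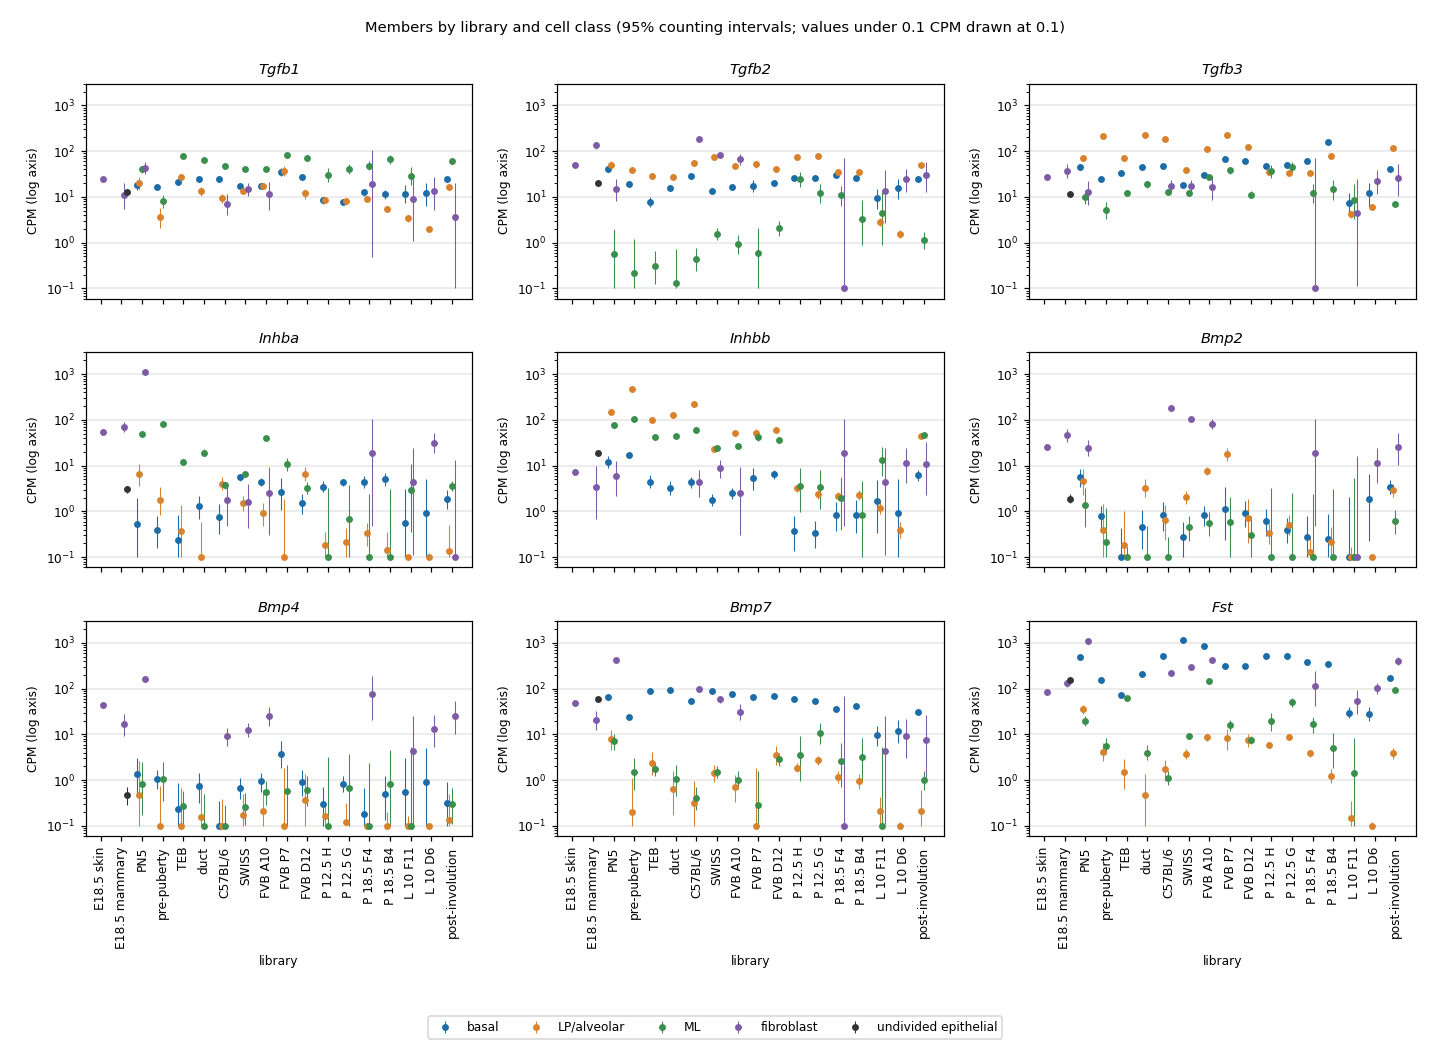
CPM of each gene on a log axis by library, in developmental order, with 1 colour per cell class. Points are single libraries and bars are 95% counting intervals. Values under 0.1 CPM are drawn at 0.1. PN5 is postnatal day 5, P a day of pregnancy and L a day of lactation. The LP/alveolar and ML points of Inhbb drop from the adult to the pregnant libraries, and the basal points of Fst drop at lactation.

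To ask which epithelial class makes each ligand, the classes of the 3 adult FVB/NJ libraries were compared with edgeR's quasi-likelihood test on summed counts, with the library as a block and Benjamini-Hochberg adjustment over all genes tested. A gene was called at an adjusted p under 0.05. From LP/alveolar to basal cells 6 of the 9 genes were called, 2 higher and 4 lower, against 34.1% of all genes. From LP/alveolar to ML cells 5 of 9 were called, against 30.6% of all genes, and from ML to basal cells 7 of 9, against 48.2%. The median log2 difference of the 9 genes was -0.33, 0.02 and 1.03 in these comparisons, beside 0.02, 0.03 and -0.01 over all genes tested.

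**Figure D3:**
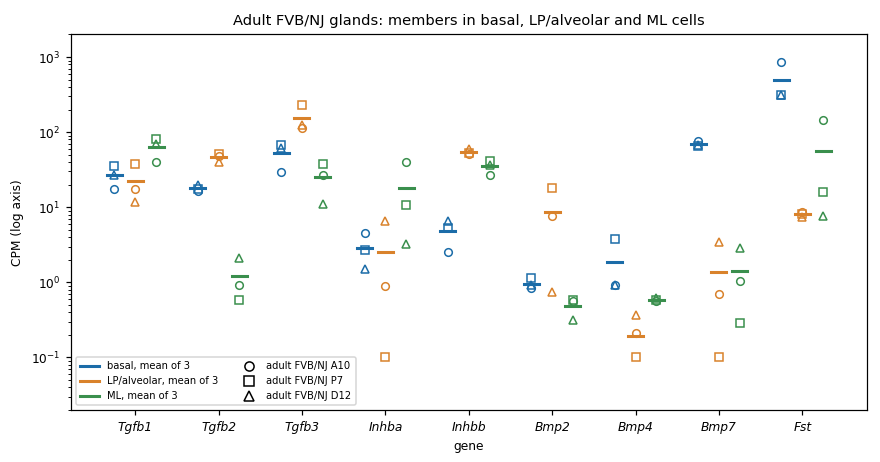
CPM on a log axis in basal, LP/alveolar and ML cells of the 3 adult FVB/NJ libraries. Each symbol is 1 library, the bar is the mean of 3, and values under 0.1 are drawn at 0.1. The basal symbols of Bmp7 and Fst lie above those of both luminal classes in each library, and the ML symbols of Tgfb2 lie below the others.

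Tgfb1 had its highest median in ML cells among the epithelial classes, and still higher ones in endothelial, immune and mural cells. Among classes found in at least 3 libraries its order of medians was endothelial (99.2 CPM, 4 libraries), immune (67.2, 4 libraries), mural (51, 3 libraries), ML (46.3, 15 libraries), Schwann (24.3), keratinocyte (23.3), basal (17.5), fibroblast (12.2) and LP/alveolar cells (10.6), and neighbours in this order had overlapping ranges. In adult FVB/NJ ML cells Tgfb1 stood at 40.2 CPM in A10, 81.3 in P7 and 69.7 in D12, and in the LP/alveolar cells of the same libraries at 17.4, 37.2 and 11.9. The ML value was the higher one in each library, by 1.44 ± 0.30 on the log2 scale (SE, 3 libraries, edgeR adjusted p = 0.00612). Basal cells, at 17.7, 35.5 and 26.8 CPM, were lower than ML cells by a log2 difference of -1.35 ± 0.29 (edgeR adjusted p = 0.00394) and did not differ detectably from LP/alveolar cells (log2 difference 0.08 ± 0.30, adjusted p = 0.865). Without A10 the difference between ML and LP/alveolar cells was not called (edgeR adjusted p = 0.0529). In the libraries outside the FVB/NJ strain that are later than postnatal day 5, ML levels of Tgfb1 were 7.96 CPM before puberty, 76.9 in the TEBs, 63 in the ducts, 46.3 in adult C57BL/6 and 40.7 in adult SWISS glands. The pre-pubertal ML cells were the exception among these, and were the only ML cells below the basal cells of their own library (16.6 CPM).

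In adult FVB/NJ glands Tgfb2 and Tgfb3 shared the LP/alveolar cells as their main epithelial source but differed in ML cells. In pregnancy the mean of Tgfb3 was higher in basal than in LP/alveolar cells, with milk genes counted in the totals. It was 47.6 against 34.7 CPM at day 12.5 and 112 against 56.8 CPM at day 18.5. On TMM-scaled totals this excess was not seen. There the mean LP/alveolar minus basal difference in log2(CPM + 1) was -0.13 at day 12.5 and 0.00 at day 18.5. The adult values follow. Tgfb2 stood at 47.9, 51.5 and 40.1 CPM in LP/alveolar cells of A10, P7 and D12, at 16.7, 17.5 and 19.7 in basal cells, and at 0.935, 0.583 and 2.1 in ML cells. The 3 classes did not overlap: ML cells were lower than LP/alveolar cells by a log2 difference of -5.26 ± 0.36 (edgeR adjusted p = 2.5e-05; -5.95 without D12), and basal cells by -1.61 ± 0.29 (adjusted p = 0.00222). Tgfb3 stood at 112, 230 and 126 CPM in LP/alveolar cells, at 29.6, 67.5 and 60.7 in basal cells and at 26.8, 37.9 and 11.2 in ML cells. Its LP/alveolar level was above both others in each library, with log2 differences of -1.74 ± 0.35 to basal (adjusted p = 0.00452) and -2.77 ± 0.37 to ML cells (adjusted p = 0.000532). Basal cells were called higher than ML cells for Tgfb2 (3.65 ± 0.35, adjusted p = 5.79e-05) and for Tgfb3 (1.03 ± 0.36, adjusted p = 0.0405), where the libraries overlapped and the call was lost without P7 (adjusted p = 0.156) or D12 (0.38, adjusted p = 0.197), while without A10 the difference was 1.63. The calls between LP/alveolar and basal cells were lost without A10 for Tgfb2 (edgeR adjusted p = 0.0571) and without P7 for Tgfb3 (0.0763). Among classes found in at least 3 libraries Tgfb2 had its highest medians in mural cells (55.6), LP/alveolar cells (44) and fibroblasts (40.2), and ML cells were last at 1.17 CPM. For Tgfb3 the order of these classes opened with mural (87.9), LP/alveolar (75.7) and basal cells (45.5). The tendon-like cells, found in 1 library, held 90.5 CPM of Tgfb2 and 77.6 of Tgfb3, and the skeletal muscle cells, also of 1 library, 58.1 and 38.7. Fibroblasts of adult C57BL/6 glands held 181 CPM of Tgfb2 and those of the E18.5 mammary library 136, which were the highest values of this gene in any class. None of the 7 fixed fibroblast markers was among the 10 leading genes of the fibroblasts of adult C57BL/6 (led by Pi16, Fn1 and Igfbp6), E18.5 skin (Cpne5, Igfbp3 and a) or postnatal day 5, so these names rest on the marker score alone.

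Inhbb, which encodes the βB subunit of activin B, was a luminal transcript in glands that had never been pregnant. It stood at 51.8, 53 and 59.7 CPM in LP/alveolar cells of A10, P7 and D12, at 26.8, 41.7 and 36.3 in ML cells and at 2.51, 5.34 and 6.52 in basal cells. No library overlapped between the 3 classes. Basal cells were lower than LP/alveolar cells by a log2 difference of -3.87 ± 0.28 (edgeR adjusted p = 3.69e-05) and than ML cells by -3.03 ± 0.27 (adjusted p = 4.63e-05), and ML cells were lower than LP/alveolar cells by -0.84 ± 0.24 (adjusted p = 0.0241). The last call was lost without A10 (adjusted p = 0.123) and without P7 (adjusted p = 0.0913).

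The luminal level of Inhbb also varied between the other libraries from glands never pregnant. In LP/alveolar cells it was 151 CPM at postnatal day 5, 485 before puberty, 97.6 in TEBs, 126 in ducts and 217 in adult C57BL/6 glands, but 22.7 in adult SWISS glands. In ML cells these libraries gave 76.3, 102, 42.7, 44.9, 60.5 and 24 CPM. The pre-pubertal library was the highest in both luminal classes and the SWISS library the lowest of these 6. Each value comes from 1 library, and strain, age and library cannot be told apart here. The genes induced by tissue dissociation (Fos, Fosb, Jun, Junb, Egr1 and Hspa1a) had a summed level in the LP/alveolar cells of these libraries of 16468 CPM at postnatal day 5, 23073 before puberty, 8086 in TEBs, 14166 in ducts, 22020 in adult C57BL/6 and 7961 in adult SWISS glands. In LP/alveolar cells these sums were highest before puberty and lowest in SWISS, as Inhbb was. In the ML cells of the same libraries they were 14943, 10413, 6515, 6632, 7142 and 6522 CPM, highest at postnatal day 5 and lowest in TEBs, while ML Inhbb was highest before puberty and lowest in SWISS. Their part in the Inhbb levels was not tested. The undivided epithelium at E18.5 held 18.7 CPM of Inhbb.

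Inhba, the βA subunit of activin A, was low in most of the epithelium and varied between libraries of the same stage. In ML cells of A10, P7 and D12 it stood at 40.6, 10.8 and 3.26 CPM, and in basal cells at 4.48, 2.67 and 1.51. ML cells were higher in each library, and the log2 difference from ML to basal cells was -2.66 ± 0.97 (edgeR adjusted p = 0.0465), which was lost without A10 (-1.73, adjusted p = 0.283), without P7 (-2.74, adjusted p = 0.141), with at least 1000 genes per cell (-2.67, adjusted p = 0.0505) and with DESeq2 (-2.52, adjusted p = 0.132). In LP/alveolar cells the values were 0.906 in A10, 0 in P7, where 3 counts would be 1.53 CPM, and 6.62 in D12. The highest epithelial levels of Inhba were in ML cells before puberty (81.1 CPM) and at postnatal day 5 (49.7 CPM). Outside the epithelium it was found in mural cells, at 157 CPM in adult C57BL/6, 107 in A10 and 18.1 in pregnancy F4, and in fibroblasts, from 0 CPM after involution to 1100 CPM at postnatal day 5. It was at a median of 0 CPM in Schwann, endothelial and immune cells.

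Among basal, LP/alveolar and ML cells, Bmp7 and Fst marked the basal layer. Over all classes found in at least 3 libraries, the Fst median was higher in keratinocytes (423 CPM) than in basal cells (332). The keratinocyte median rests on 3 libraries, from 1.76 to 626 CPM, and basal cells ranged from 28.5 to 1165 CPM over 16 libraries. Schwann cells (176), fibroblasts (173) and mural cells (149) came next. For Bmp7 basal cells came first (56.6), before keratinocytes (35) and fibroblasts (26.3). Bmp7 stood at 77, 66.3 and 68.1 CPM in basal cells of A10, P7 and D12, against 0.697, 0 and 3.49 in LP/alveolar cells and 1.03, 0.292 and 2.87 in ML cells. Basal cells were higher than LP/alveolar cells by 5.58 ± 0.56 (log2, edgeR adjusted p = 0.00012) and than ML cells by 5.56 ± 0.52 (adjusted p = 5.19e-05), with no overlap. Fst stood at 867, 312 and 310 CPM in basal cells, 8.71, 8.15 and 7.35 in LP/alveolar cells and 145, 16 and 7.54 in ML cells. Basal cells were higher than LP/alveolar cells by 5.64 ± 0.72 (adjusted p = 0.000371) and than ML cells by 3.70 ± 0.63 (adjusted p = 0.00118). The A10 library was the highest for Fst in both basal and ML cells. In the ML cells of these 3 libraries the 7 fibroblast markers summed to 31.2 to 1088 CPM and the 8 basal markers to 110 to 983 CPM. The part of these in the Fst values was not tested. The sizes moved with single libraries, though not the calls: Bmp7 in basal against LP/alveolar cells was 4.99 without A10 and 6.73 without D12, against ML cells 6.30 without D12, and Fst against ML cells 4.81 without A10 and 3.11 without D12.

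The basal level of Fst ranged widely before the first pregnancy. It was 489 CPM at postnatal day 5, 151 before puberty, 71.2 in TEBs, 210 in ducts, 509 in adult C57BL/6 and 1165 in adult SWISS basal cells, with the TEBs lowest. In the TEB library ML cells, at 63.4 CPM, came close to the basal level, while in the ducts ML cells held 4 CPM. Bmp7 in the same basal cells was 64.9, 24.2, 90.7, 92.1, 54.4 and 89.1 CPM, and here the counting intervals of TEBs and ducts overlapped. The undivided E18.5 epithelium had 58.1 CPM of Bmp7 and 153 of Fst, both within the range of later basal cells. Cells called keratinocytes, with Krt1 and Krt10 among their leading genes, held 626 CPM of Fst in the E18.5 mammary library and 423 at postnatal day 5. The paper reports some epidermal contamination of the E18.5 mammary cells. It counts the clusters outside the epithelium in both libraries as skin or stroma, and describes basal-like epithelial clusters at postnatal day 5. The 102 keratinocytes of lactation D6 held 1.76 CPM of Fst. Schwann cells held a median of 176 CPM over 8 libraries.

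Bmp2 and Bmp4 were highest outside the mammary epithelium. Bmp2 stood at 182 CPM in adult C57BL/6 fibroblasts, 105 in SWISS and 80.7 in A10, against 0.832, 0.27 and 0.837 in the basal cells of the same libraries. Tendon-like cells of the E18.5 skin held 141 CPM and keratinocytes at postnatal day 5 held 80.7. Within the adult FVB/NJ epithelium Bmp2 was called higher in LP/alveolar than in basal cells (log2 difference to basal -2.79 ± 0.69, edgeR adjusted p = 0.0118) and than in ML cells (-3.73 ± 0.72, adjusted p = 0.00397). The libraries disagreed, with 7.66, 17.8 and 0.735 CPM in LP/alveolar cells of A10, P7 and D12 and 0.837, 1.14 and 0.92 CPM in basal cells, so that in D12 the LP/alveolar value was the lower one. Without P7 both calls were lost (-2.23, adjusted p = 0.125, and -3.20, adjusted p = 0.06), and without D12 the difference to basal cells was -3.73. Bmp4 was highest in fibroblasts of postnatal day 5 (165 CPM), pregnancy F4 (75.3, from 4 UMIs in 23 cells) and E18.5 skin (43.3). In the epithelium it did not exceed 3.81 CPM in any class and library, and no class contrast of Bmp4 passed the test.

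The cells called fibroblasts at postnatal day 5 stood apart. These 235 cells held 1100 CPM of Inhba, 1080 of Fst, 418 of Bmp7 and 165 of Bmp4, while fibroblasts of adult C57BL/6, SWISS and A10 glands held 1.75, 1.58 and 2.52 CPM of Inhba. Their leading genes over the rest of the library were Rspo3, Ebf1, Enpp2, Rspo1, Inhba, a (agouti), Hhip, Col23a1, Runx1t1 and Prrx1, with no fixed fibroblast marker among them, as said above. All 7 of those markers were found in these cells, but at a summed 3614 CPM, against 13584 in A10, 16340 in adult C57BL/6, 17500 in SWISS, 19714 in the E18.5 mammary library and 37341 in E18.5 skin fibroblasts, and whether they are the same class was not tested. Fibroblasts of the E18.5 skin and E18.5 mammary libraries lay between for Inhba, at 54.7 and 71.2 CPM. For Fst they stood at 84.3 and 130 CPM, below the 216, 302 and 425 CPM of adult C57BL/6, SWISS and A10 fibroblasts. In the postnatal day 5 library 1893 of the 3728 cells were called keratinocytes. A per-cell gate on marker UMIs gave the same name to 500 of these 1893 cells, and 432 cells of the library were called basal. The paper describes a basal cluster, further basal-like clusters and a luminal population at this age. It treated the clusters outside the epithelium as skin or stromal contamination. Which of the paper's clusters hold the cells called keratinocytes here was not tested. Whether the 235 cells came from skin or from the gland was not tested.

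The pregnancy cycle was followed in FVB/NJ glands, where 3 adult, 2 mid-pregnancy, 2 late-pregnancy and 2 lactation libraries allowed a test within each class. Successive contrasts share a stage, so they are not independent. Of 65 tests of the 9 genes, 10 were called, 9 lower and 1 higher at the later stage. From adult to pregnancy day 12.5, 2 of 9 genes were called in basal cells (1.31% of all genes), 3 of 8 in LP/alveolar cells (11.7%) and 2 of 7 in ML cells (7.53%). From pregnancy day 12.5 to 18.5 none was called by edgeR in basal cells (0% of all genes, with 1164 of 13104 at an unadjusted p under 0.05 and 169 called by DESeq2), in LP/alveolar cells (1.03%) or in ML cells (0%, with 780 of 10359 at an unadjusted p under 0.05 and 53 called by DESeq2). Tgfb3 was the 1 member at an unadjusted p under 0.05 there, in each of the 3 classes, with log2 changes of 1.10 ± 0.46 (basal), 1.23 ± 0.48 (LP/alveolar) and -1.75 ± 0.56 (ML). DESeq2 called no member there. The number of genes called at this step also rests on single libraries: without P7 the basal count went from 0 to 268, the ML count from 0 to 153 and the LP/alveolar count from 142 to 982. For LP/alveolar cells it fell to 0 with H or G left out, to 13 to 43 without F4, B4, F11 or D6, and became 286 without A10 and 332 without D12, and the basal count was 43 without A10 and 7 without D12. In none of these fits was a member called. From pregnancy day 18.5 to lactation day 10, 1 of 9 was called in basal cells (0.832%) and 2 of 8 in LP/alveolar cells (2.93%). ML cells were not tested there, because the D6 library held no cells named ML. The numbers of genes called rest on single libraries. From adult to P12.5 the 172 basal calls became 1 without H, 8 without G, 25 to 71 without D12, F4, B4, F11 or D6, 573 without P7 and 836 without A10. The 1613 LP/alveolar calls became 67 and 73 without H and G, 867 and 894 without F4 and B4, and 2467 without P7. The 780 ML calls became 141 and 129 without H and G, 356 and 366 without F4 and B4, and 1642 without P7. From P18.5 to L10 the 109 basal calls became 0 without F4, 2 without B4, 6 without F11 and 26 without D6, and the 402 LP/alveolar calls 18, 38, 182 and 83. Without H or G the basal calls were 62 and the LP/alveolar ones 168 and 166, and without P7 they were 300 and 980. The median log2 change of the members tested at the first step was -0.25 for basal, -1.44 for LP/alveolar and -0.85 for ML cells, beside -0.07, 0.03 and -0.07 over all genes, and -0.52 in basal and -1.41 in LP/alveolar cells at the last, beside -0.07 and -0.03. The fitted changes are relative to TMM-scaled totals, since milk genes took 77.2% and 78.2% of the UMIs of lactating LP/alveolar cells. Of all genes called from P18.5 to L10, 69.2% were higher in LP/alveolar and 89% in basal cells, and without TMM scaling 1.74% and 26.1% were.

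**Figure D4:**
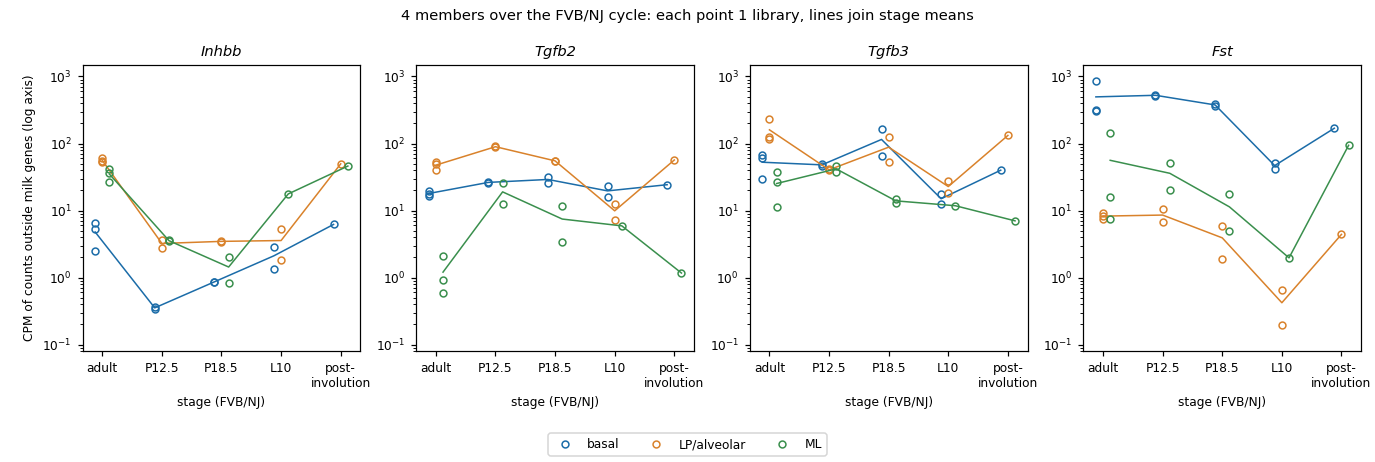
CPM of counts outside the milk genes, on a log axis, for Inhbb, Tgfb2, Tgfb3 and Fst over the FVB/NJ cycle. Each point is 1 library, lines join stage means, and colours are basal, LP/alveolar and ML cells. The post-involution stage has 1 library. Inhbb drops between adult and P12.5 in all 3 classes, and Tgfb2 in ML cells is higher in both P12.5 libraries than in the 3 adult ones.

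Inhbb fell by mid-pregnancy in all 3 epithelial classes. In LP/alveolar cells it went from 51.8, 53 and 59.7 CPM in the adults to 3.18 and 2.36 CPM in H and G, a log2 change of -4.02 ± 0.44 (edgeR adjusted p = 0.00145). In ML cells it went from 26.8, 41.7 and 36.3 to 3.52 and 3.4 CPM (-3.37 ± 0.45, adjusted p = 0.0035), and in basal cells from 2.51, 5.34 and 6.52 to 0.366 and 0.334 CPM (-3.59 ± 0.60, adjusted p = 0.0246). The adult and pregnant libraries did not overlap in any class, and the change did not differ detectably between LP/alveolar and basal cells (interaction -0.67 ± 0.56, adjusted p = 0.519). The LP/alveolar call held when any 1 library was left out. The ML call was lost without H (adjusted p = 0.0623) or G (0.0774), and the basal call without H (0.39), G (0.475), F4 (0.0774), B4 (0.0773), F11 (0.0523) or D6 (0.051), while the log2 change stayed between -3.90 and -3.20.

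Inhbb then stayed low to lactation and was high again after involution. Counted outside the milk genes, LP/alveolar cells held 3.39 CPM in F4, 3.55 in B4, 5.32 in F11 and 1.82 in D6, and the changes from P12.5 to P18.5 (0.20 ± 0.42) and from P18.5 to L10 (0.21 ± 0.44) were not called. Without TMM scaling the last change was called lower (-1.53, edgeR adjusted p = 0.0135), where all genes shifted by a median of -1.80. The post-involution library held 44.1 CPM in LP/alveolar cells, 46.1 in ML cells and 6.2 in basal cells, near the adult values, from 1 library and without a test. The dissociation genes named above were likewise higher after involution, at a summed 11651 CPM in LP/alveolar cells (8541 in ML cells) against 5393 in F4, 3047 in B4 and 1362 to 1408 at lactation. Their part in the Inhbb values was not tested.

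In the same adult to mid-pregnancy step Tgfb3 and Bmp2 were called lower in LP/alveolar cells and Tgfb1 in basal cells. Tgfb3 went from 112, 230 and 126 CPM to 35.5 and 34 CPM in LP/alveolar cells (log2 change -1.84 ± 0.46, edgeR adjusted p = 0.0315), without overlap. In basal cells it was 29.6, 67.5 and 60.7 CPM in the adults and 46.3 and 48.9 CPM in H and G, a change of 0.01 ± 0.42. The difference between the classes was itself called (interaction -1.94 ± 0.27, adjusted p = 0.000721; 11% of all genes were called in this interaction) and held when any 1 library was left out. Bmp2 went from 7.66, 17.8 and 0.735 to 0.345 and 0.515 CPM in LP/alveolar cells (-3.94 ± 0.98, adjusted p = 0.0313), where the change was -3.28 without P7 and -4.53 without D12. Tgfb1 in basal cells went from 17.7, 35.5 and 26.8 to 8.48 and 7.58 CPM (-1.58 ± 0.33, adjusted p = 0.0495). In LP/alveolar cells Tgfb1 changed by -1.04 ± 0.44 (edgeR adjusted p = 0.148). The change did not differ detectably between these 2 classes for Tgfb1 (interaction 0.53 ± 0.34, edgeR adjusted p = 0.377) or for Bmp2 (-2.70 ± 0.96, adjusted p = 0.0915). Without H or G the calls of Tgfb3 (adjusted p = 0.253 and 0.251), Bmp2 (0.264 and 0.21) and Tgfb1 (0.489 and 0.638) were lost, and those of Bmp2 and Tgfb1 also without F4, B4, F11 or D6, and that of Tgfb1 without D12 (0.0903) with classes set by a per-cell gate on marker UMIs (0.0508) or with milk genes left out of the fit (-1.56, adjusted p = 0.0532).

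Tgfb2 was the 1 member that rose. In ML cells it went from 0.935, 0.583 and 2.1 CPM in the adults to 24.7 CPM in H and 12.2 in G (log2 change 3.71 ± 0.68, edgeR adjusted p = 0.0148), lost without H (3.14, adjusted p = 0.169) or G (4.15, adjusted p = 0.0631). In the LP/alveolar cells of H and G it stood at 76.1 and 77.8 CPM, against 47.9, 51.5 and 40.1 in the adults, a change that was not called by edgeR (1.01 ± 0.30, adjusted p = 0.0572). DESeq2 called 5 members in LP/alveolar cells at this step, where edgeR called 3. The ML cells of pregnancy were few, 212 in H and 284 in G, and carried more RNA of the other classes. The 7 LP markers summed to 878 and 689 CPM in them, against 251 to 599 in adult ML cells, and the 8 basal markers to 1452 and 2961 CPM, against 110 to 983. The 8 milk genes summed to 32292 and 19642 CPM, against 58.3 to 339. All 8 ML markers were found in these cells at a summed 1684 and 1681 CPM, below the 4185 to 5059 CPM of adult ML cells. The part of these values in the Tgfb2 result was not tested. Of the other ML values at this step, Inhba changed by -5.68 ± 1.79 (edgeR adjusted p = 0.101), Bmp7 by 2.16 ± 0.89 (0.18) and Tgfb1 by -0.85 ± 0.37 (0.208), none of them called by edgeR. DESeq2 called 3 members in ML cells at this step. Bmp2 and Bmp4 were too low in ML cells to be tested between stages, as was Bmp4 in LP/alveolar cells.

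Inhba moved differently in the 2 cell layers between adult and mid-pregnancy. In LP/alveolar cells it was 0.906, 0 and 6.62 CPM in the adults and 0.184 and 0.212 CPM in H and G, and in basal cells 4.48, 2.67 and 1.51 CPM and then 3.48 and 4.31 CPM. Neither change was called alone by edgeR (-3.39 ± 1.08, adjusted p = 0.0689, and 0.46 ± 0.50, adjusted p = 0.734), while the interaction was (-3.76 ± 1.10, edgeR adjusted p = 0.0441). Without A10 it was -5.46, and it was lost without D12 (-1.81, adjusted p = 0.107), H (adjusted p = 0.196), G (0.251), F11 (0.0656) or D6 (0.0683), with DESeq2 (0.146), without TMM scaling (0.0633), with at least 1000 genes per cell (0.0711) and with the per-cell gate (0.279). In the interactions of the later steps edgeR called no member, where 3.81% of all genes were called from P12.5 to P18.5 and 1.75% from P18.5 to L10. From P12.5 to P18.5 no member was at an unadjusted p under 0.05 either, and from P18.5 to L10 Tgfb2 (-1.69 ± 0.40) and Tgfb3 (1.18 ± 0.39) were, of which DESeq2 called Tgfb2.

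At lactation the fall was in Tgfb2, Tgfb3 and Fst. In LP/alveolar cells Tgfb2, counted outside the milk genes, went from 55.2 and 55 CPM in F4 and B4 to 12.6 and 7.21 CPM in F11 and D6 (log2 change -2.26 ± 0.35, edgeR adjusted p = 0.0111). Fst in the same cells went from 5.92 and 1.91 to 0.648 and 0.195 CPM (-3.15 ± 0.72, adjusted p = 0.0487), on 5 UMIs in F11 and 3 in D6, where all counts gave 0.0425 CPM with a 95% counting interval of 0.00876 to 0.124. In basal cells Tgfb3 went from 61.8 and 162 CPM to 7.22 and 11.9 CPM (-2.86 ± 0.54, adjusted p = 0.038), where B4 stood above F4. The change of Tgfb3 in LP/alveolar cells was not called by edgeR (-1.72 ± 0.48, adjusted p = 0.0999). At this step DESeq2 called 3 members in LP/alveolar and 2 in basal cells. The 8 milk genes took 323023 to 419310 CPM of the lactating basal cells and 19943 to 35388 CPM of the late-pregnant ones, and the LP markers summed to 2086 to 2707 and 1013 to 1112 CPM, whose part in the basal result was not tested. Basal Fst went from 380 and 352 to 30 and 28.5 CPM without overlap, but at -2.92 ± 0.65 its edgeR adjusted p was 0.081, and basal Bmp7, at 36.7 and 41.5 and then 9.44 and 11.9 CPM, changed by -1.17 ± 0.36 (edgeR adjusted p = 0.228). The summed basal markers in LP/alveolar cells were 319 and 961 CPM in late pregnancy and 84.8 and 15.4 CPM at lactation, all 8 being found. Their part in the Fst value of LP/alveolar cells was not tested. These calls were lost without some libraries: Tgfb2 without F4 (edgeR adjusted p = 0.108), B4 (0.0918) or D6 (0.107), Tgfb3 without H (0.0698), G (0.0694), F4 (0.124), B4 (-2.11, adjusted p = 0.432), F11 (0.329) or D6 (0.286), and Fst without any library but P7, with a log2 change of -2.17 without F4, -4.05 without F11 and -2.40 without D6, where the adjusted p was highest at 0.37. With the per-cell gate neither Tgfb3 in basal cells (edgeR adjusted p = 0.229) nor Fst in LP/alveolar cells (0.153) was called. After involution basal cells held 169 CPM of Fst and 31.4 of Bmp7, and ML cells 94 CPM of Fst.

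The other 65 genes of the pathway, fixed by role, were read in the same fits. Only the main fits with all libraries were read for them, so their calls were not tested without P7 or any other library. Their levels are TMM-scaled mean CPM of each fit, and the scale differs between fits. Adult LP/alveolar Id1, for example, stood at 157 CPM in the fit of adult classes and at 82.4 in the fit of stages. In the adult comparison of LP/alveolar with basal cells, the extracellular inhibitors and carriers were mostly basal: of 11 tested 7 were higher in basal cells and 2 lower (34.1% of all genes were called), with a median log2 difference of 1.20 beside 0.02 for all genes. Fstl1, a follistatin-like protein, was at 3.77 CPM in LP/alveolar and 137 in basal cells (5.33 ± 0.43, edgeR adjusted p = 5.43e-05, TMM-scaled means of 3 libraries). Sostdc1, a BMP antagonist, was at 13.4 and 109 CPM (4.14 ± 0.68), and the latent TGF-β binding proteins Ltbp4 and Ltbp2 at 2.46 and 32.6 CPM (3.85 ± 0.41) and at 11.7 and 94.9 CPM (3.34 ± 0.47). Lrrc32, which holds latent TGF-β on the cell surface, went the other way, at 3.64 and 0.507 CPM (-3.40 ± 0.67). Of 12 receptors 6 were higher in basal cells and 1 lower, against the same 34.1%, among them the co-receptor Tgfbr3 at 8.32 and 82.7 CPM (3.35 ± 0.47, adjusted p = 0.000596).

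ML cells held less of most carriers and inhibitors than basal cells. From ML to basal cells 9 of 11 inhibitors and carriers were higher and none lower (48.2% of all genes were called), with a median log2 difference of 3.89 beside -0.01 for all genes. From LP/alveolar to ML cells 5 of 11 were lower and 0 higher (30.6% of all genes were called), with a median of -1.47 beside 0.03. The pseudoreceptor Bambi was at 4.98 CPM in ML, 70.2 in LP/alveolar and 169 in basal cells, with a log2 difference from LP/alveolar to ML cells of -3.54 ± 0.38 (edgeR adjusted p = 0.00015). Itgb8, an integrin subunit that activates latent TGF-β, was at 17 CPM in LP/alveolar and 0.61 in ML cells (-4.75 ± 0.30, adjusted p = 1.88e-05). In the same comparison 2 of 4 other ligands, among them Bmp3 (0.43 to 18.6 CPM, 4.51 ± 0.60), were higher in ML cells and 1 lower, and 3 of 12 receptors, among them Bmpr1b (0.122 to 1.98 CPM, 3.81 ± 0.85), were higher and 3 lower. Of 7 BMP targets 2 were higher in ML cells, Msx2 (2.31 to 62.6 CPM, 4.70 ± 0.31) and Id3 (37.1 to 314 CPM, 3.12 ± 0.41), and 2 lower, among them Id1 (157 to 6.84 CPM, -4.38 ± 0.47), with a median of -0.80 for the list.

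Most BMP target genes tested in LP/alveolar cells were called lower at mid-pregnancy than in the adult, in the fit with all libraries. Whether these calls hold without single libraries or with DESeq2 was not tested. At the 2 later steps 0 of 6 were called in these cells (1.03% and 2.93% of all genes were called). From adult to mid-pregnancy 4 of 6 tested were lower and none higher (11.7% of all genes were called), with a median log2 change of -2.40 beside 0.03 for all genes. Levels here are TMM-scaled means of the stage fits, so the adult ones differ from those of the class comparison above. Id1, an inhibitor of differentiation factors, went from 82.4 to 3.29 CPM (-4.64 ± 0.71, edgeR adjusted p = 0.00619), Id3 from 19.4 to 1.84 CPM (-3.39 ± 0.67, adjusted p = 0.0146) and Id2 from 110 to 41 CPM (-1.42 ± 0.40, adjusted p = 0.0473). Id1 and Id3 also fell in basal cells, from 39.8 to 3.64 CPM (-3.44 ± 0.37) and from 159 to 15.9 CPM (-3.32 ± 0.58), where 2 of 7 BMP targets were lower (1.31% of all genes were called). In ML cells Id1 rose, from 7.11 to 29.6 CPM (2.06 ± 0.38, adjusted p = 0.0152), and Msx2 fell, from 66 to 16.3 CPM (-2.03 ± 0.50, adjusted p = 0.0417). Of 4 TGF-β targets tested in LP/alveolar cells 2 were lower: Pmepa1 (78.6 to 16.8 CPM, -2.23 ± 0.51) and Skil (116 to 29.9 CPM, -1.95 ± 0.32).

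In the other lists at this step in LP/alveolar cells the counts are read against the same 11.7%. Of 12 inhibitors and carriers 2 were lower, Lrrc32 (1.91 to 0.176 CPM, -3.28 ± 0.69) and the follistatin-like Fstl3 (5.64 to 0.923 CPM, -2.62 ± 0.49), with a median of -0.85 for the list. Of 11 receptors 2 were lower, Eng (0.644 to 0.0745 CPM, -2.98 ± 0.76) and Acvrl1 (11 to 3.81 CPM, -1.49 ± 0.33). Of 5 other ligands 2 were lower, among them Gdf15 (3.81 to 0.5 CPM, -2.77 ± 0.74). Smad3, a transducer of TGF-β and activin, was the 1 of 7 SMADs called and rose (3.38 to 9.19 CPM, 1.43 ± 0.31, edgeR adjusted p = 0.0204). The pseudoreceptor Bambi moved lower in LP/alveolar against basal cells, with its mean difference on the log2(CPM + 1) scale going from -1.17 to -3.12 (interaction -2.03 ± 0.29, adjusted p = 0.000893), and so did the integrin subunits Itgav (-0.21 to -1.77, interaction -1.57 ± 0.21) and Itgb6 (1.18 to -0.09, interaction -1.68 ± 0.40) and the targets Id2 (interaction -1.17 ± 0.22) and Skil (interaction -0.92 ± 0.27). The carrier Ltbp4 went the other way (-3.16 to -1.84, interaction 1.52 ± 0.32, adjusted p = 0.00866). In this interaction 11% of all genes were called. Of 12 inhibitors and carriers 1 was higher and 1 lower, and 2 of 5 activators, 1 of 5 TGF-β targets and 1 of 7 BMP targets were lower. Of 12 receptors, 7 SMADs and 6 other ligands 0 were called. In the later steps the fits within a class called 2 of the pathway genes, both in LP/alveolar cells: Bmp3 rose from P12.5 to P18.5 (0.0293 to 1.33 CPM, 5.37 ± 0.82) and Eng from P18.5 to L10 (0.175 to 1.57 CPM, 3.15 ± 0.71).

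The genes induced by tissue dissociation were also lower in luminal cells at mid-pregnancy. The 6 genes named above summed to 7834 to 19348 CPM in adult LP/alveolar cells and to 2577 and 2607 CPM at mid-pregnancy, to 5442 to 18340 and then 2801 and 3191 CPM in ML cells, and to 5939 to 28534 and then 6546 and 6674 CPM in basal cells, where the ranges overlapped. Their part in the changes of Inhbb, the Id genes, Skil and the other genes lower at mid-pregnancy was not tested. Per the study's methods, an FVB adult sample was handled alongside the post-involution one, while no pregnancy or lactation library is named as handled together with any other, so stage and processing cannot be told apart. The pre-pubertal, adult C57BL/6 and adult SWISS glands formed another set handled together, as did the TEBs with the ducts and the E18.5 pair.

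In ML cells, where 7.53% of all genes were called, the mid-pregnancy step went with higher Bmpr1b (2.03 to 27.9 CPM, 3.77 ± 0.48, edgeR adjusted p = 0.00275), the TGF-β activator Thbs1 (6.57 to 103 CPM, 3.90 ± 0.71), the TGF-β target Ctgf (1.42 to 18.6 CPM, 3.71 ± 0.55) and the ligand Gdf11 (0.691 to 12 CPM, 3.97 ± 0.64), and with lower Eng, a TGF-β co-receptor (18.9 to 0.329 CPM, -5.59 ± 1.11). By list, 1 of 12 receptors was higher and 1 lower, while 1 of 4 activators, 1 of 5 TGF-β targets and 1 of 2 other ligands were higher. Of 6 inhibitors and carriers 0 were called. The median log2 change of the 5 TGF-β targets was -0.81, against the direction of Ctgf, beside -0.07 for all genes. Thbs1 and Ctgf were among the genes most above ML levels in adult basal cells (251 and 176 CPM), and the basal marker sums given above for these ML cells apply to them too.

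The genes most like each member in their pattern over the 77 sums of at least 50 cells were found by Pearson's r of log2(CPM + 1), a description across sums that share libraries. For Inhbb they were Aqp5 (r = 0.80), Nxf7 (0.80) and Vill (0.74). For Tgfb3 they were Wnt5b (0.82), Anpep (0.70) and Map2 (0.68), for Tgfb2 Tcf7l1 (0.74), Klf7 (0.73) and Creb5 (0.71), and for Tgfb1 Tbc1d1 (0.73), Ptpn1 (0.72) and Tspan13 (0.69). Bmp4 went with the mesenchymal factor Twist1 (0.83), Islr (0.82) and Gdf10 (0.82), and Bmp2 with Ccdc3 (0.85), Meis2 (0.81) and Thy1 (0.79). Bmp7 went with Pdpn (0.81), Vcan (0.81) and Smarca1 (0.81), Fst with Cpne2 (0.81), Col14a1 (0.80) and Gpsm1 (0.79), and Inhba, less closely, with Hhip (0.63), Crabp1 (0.62) and a, the agouti gene (0.59).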

How the data were processed

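The deposited files hold raw UMI counts for every gene in every barcode, as given by Cell Ranger in the authors' hands (3.1.0 in the submitters' processing notes, with mm10) and list barcodes with at least 500 counts. The study's own bounds on each library were applied, with more than 500 genes. Each library was clustered alone (scanpy and leidenalg), leaving out the members and pathway lists. Clusters were named from fixed markers by a score whose cutoffs were set after seeing the clusters. Clusters mixing classes were left out as possible doublets, no doublet caller was run, and free RNA was not corrected. Counts were summed per library and class with 20 or more cells and tested with edgeR 4.0.16 (R 4.3.3; TMM, filterByExpr, quasi-likelihood). Pooled animals make the library the replicate. Intervals are exact Poisson intervals and cover counting error only. DESeq2 1.42.0, other filters and leaving out libraries were tried as alternatives. Fibroblast contrasts were not tested, because P7, D12, H, G and B4 held no cells named so, which left no stage before lactation with 2 libraries. All 9 members were read in every comparison, and tested where they passed the filter on low counts. Pathway genes were named where they were called and their libraries did not overlap, at most 12 a contrast. Members and lists were chosen with earlier results of these data known. The label's 2.5 weeks for pre-puberty and 3 weeks post birth for post-involution differ from the paper. The paper gives an earlier age for the first and, in its Results, a time after weaning for the second.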

Additional observations from a re-analysis of the deposited data

Results flagged for a closer look

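The stage change of Tgfb3 differed between cell layers: from adult to mid-pregnancy its LP/alveolar level moved against its basal level by -1.94 on the log2 scale (edgeR interaction, adjusted p = 0.000721). On the log2(CPM + 1) scale the mean LP/alveolar minus basal difference was 1.77 in the adults and -0.13 in H and G, and the libraries did not overlap.

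Inhba was also called to differ between the layers, by -3.76 (edgeR interaction, adjusted p = 0.0441), on the scale of the fit. On the log2(CPM + 1) scale, which understates the change of low genes, the mean differences were -0.34 in the adults and -1.69 at mid-pregnancy, a smaller shift than the fitted one. Its adult LP/alveolar counts were 13, 0 and 36 UMIs in A10, P7 and D12, and without D12 the value was -1.81 (adjusted p = 0.107). This call held less well than that of Tgfb3. It was made in 2 of 6 alternative settings, where the Tgfb3 call was made in 6 of 6.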

How the results depend on the processing

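Of the calls on the 9 genes, those of Bmp7 and Fst in basal against both luminal classes, Tgfb2 and Tgfb3 in LP/alveolar against ML cells, Tgfb1, Tgfb2 and Inhbb in ML against basal cells, Inhbb in LP/alveolar against basal cells, Inhbb in LP/alveolar cells from adult to P12.5 and the Tgfb3 interaction held under each alternative and without each library. In place of 10 stage calls, 16 were made without TMM scaling, 15 with DESeq2, 15 without the filter on low counts and 7 with the per-cell gate, which allowed 48 of the 65 tests and not that of Tgfb2 in ML cells. With 1 library left out, stage calls ranged from 2 to 14, class calls from 12 to 20 in place of 18, and interaction calls from 1 to 5 in place of 2. Interaction calls were 6 without the filter on low counts, 1 with at least 1000 genes per cell and 1 with the per-cell gate. Without TMM scaling Tgfb1 and Inhbb were called lower in LP/alveolar cells from P18.5 to L10 (-1.45 and -1.53), where all genes shifted by a median of -1.80. From LP/alveolar to basal cells Inhba was called at 2.57 with the per-cell gate, and its value ranged from -1.30 without A10 to 2.24 without D12, where it was also called, against -0.33 with all libraries. Levels lay outside the counting interval of the reported one in 197 of 459 cases with the gate, 15 of 495 with at least 1000 genes and 45 of 513 without milk genes in the denominator. Among all genes DESeq2 called fewer than edgeR in the 3 class contrasts (4480 against 4642, 4076 against 4165 and 6244 against 6559) and the first interaction (1514 against 1581), and more in the stage contrasts, at 667 against 172 in basal cells from adult to P12.5, 353 against 109 from P18.5 to L10, and 2445 against 1613, 816 against 142 and 913 against 402 in the 3 LP/alveolar steps. Without TMM scaling the higher share of all calls went from 53.6% to 67.3% for LP/alveolar to basal cells, from 47.4% to 30.3% and from 84.5% to 25.4% in the first 2 LP/alveolar steps, and from 65.1% to 4.63% and from 68.3% to 1.64% in the last 2 interactions. The milk-free fits, added after seeing the data, made 9 stage calls and 3 interaction calls. No paired analysis was possible because the stages share no replicate labels, while the class contrasts and interactions carry the library as a block. Values under about 1 CPM rest on a few UMIs.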
